A study of Mus musculus with 134 samples.

Results

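The Proxi cells are 133 single mouse embryonic stem cells (mESCs) of the line ES-E14TG2a, labelled E14, that the study's table of cell labels assigned to its Cluster 1, named Proxi. They were 133 of 752 cells in the count tables and 24.4% of the 545 cells that passed the filter of more than 1000 and fewer than 5000 detected genes. The other passing cells were 121 Dista cells and 291 Mix cells. All cells came from strain 129/Ola, were kept with serum and leukemia inhibitory factor, and had been given localized Wnt3a on beads for around 12 hours at a density meant for one bead per cell. Cells without beads were not analysed here. After division the daughter next to the bead was recorded as proximal and the other as distal, and each was picked by hand into its own well. In scSET-seq the RNA was read from the supernatant of the lysed cell, while the chromatin of that cell was profiled with an antibody to H3K27me3 (10 experiments) or to H3K4me3 (6 experiments). Only the RNA is described here, in raw read counts without molecular identifiers. The labels do not say whether the experiments were separate cultures, so a p-value here measures only the spread between experiments.

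Wnt3a is a lipid-modified ligand that binds Frizzled and LRP5/6 receptors, keeps β-catenin from being degraded and lets it act with TCF factors in the nucleus. In mESCs this signal helps to keep the naive pluripotent state, which rests on transcription factors such as Nanog, Esrrb and Klf2. A cell that receives Wnt3a from one side can divide so that one daughter stays by the source and one lies away from it. The clusters were built by the authors from the expression of these same cells, so differences between Proxi and the other clusters are described here without a test, and the position of the cells gave the cluster its name.

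Position was written into the cells by the plate column, since each column had its own i7 transposome oligo, with odd columns for proximal and even columns for distal cells. These oligos are shown because they are the only sequence that tells a proximal from a distal cell. The designed oligos of the first 4 columns, 5′ to 3′ with the 8-base index in capitals, were:
Column 1, proximal: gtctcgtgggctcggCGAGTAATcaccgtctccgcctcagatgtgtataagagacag
Column 2, distal: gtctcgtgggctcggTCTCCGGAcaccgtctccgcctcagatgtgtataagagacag
Column 3, proximal: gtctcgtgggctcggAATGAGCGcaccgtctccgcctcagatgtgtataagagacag
Column 4, distal: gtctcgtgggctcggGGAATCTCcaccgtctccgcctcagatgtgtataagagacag
The index of each column was found, in the orientation shown in capitals, in the barcode of every cell of that column. Of the passing cells, 114 of 278 in odd columns (41.0%) and 19 of 267 in even columns (7.12%) were Proxi. Columns 1, 3, 5 and 7 held 34, 25, 23 and 22 Proxi cells, and columns 2, 4, 6 and 8 held 7, 2, 3 and 6. Column 10 held 0 of 22, which allows a share of up to 13.6%. The share in odd columns ranged from 22.7% to 71.4% and that in even columns from 0% to 12.5%, so the ranges did not overlap. Position and index oligo cannot be told apart in this design. By plate row, Proxi cells numbered 9 to 21. The paired well beside a Proxi cell held a Mix cell for 50 of the 133, a Dista cell for 47, another Proxi cell for 20 and a cell outside the filter for 16. Only 54 distinct barcodes were used by the 133 cells, and 111 of them shared a barcode with a Proxi cell of another experiment, so that a cell is identified by its experiment and barcode together.

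The 3 H3K27me3 experiments 8, 9 and 10 stood apart from the others before any comparison was made. Their 8 Proxi cells had medians per experiment of 0.166%, 0.107% and 0.00692% of counts on the 80 ribosomal protein genes, against 1.85% to 15.3% in the other experiments. Between 10 and 17 ribosomal protein genes were detected at the median there, against 54 to 78 elsewhere. Nanog was detected in 0 of these 8 cells, which allows a share of up to 37.5%, and in 86 of the other 125. Zfp42 was found in 1 of 8 against 85 of 125, and Ftl1, a ferritin light chain gene, in 2 of 8 against 125 of 125. Rpl10a was still found in 6 of the 8, Ywhae in 4 and Aebp2 in all 8. These experiments held 8 of the 133 Proxi, 4 of the 121 Dista and 153 of the 291 Mix cells, so values pooled over Mix cells are given with and without them.

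Depth per Proxi cell ran from 6208 to 2052857 counts, with a median of 115675. The median was 175163 in the H3K27me3 experiments and 111867 in the H3K4me3 experiments. By experiment it ran from 7815 in H3K27me3 experiment 4 to 1673005 in H3K27me3 experiment 1. Median detected genes were 2330.0 per Proxi cell, 2109 per Dista cell and 2203 per Mix cell. When each cell was thinned to 10000 counts, the medians became 856.5 for 128 Proxi cells, 1095 for 112 Dista cells and 805 for 288 Mix cells, with 5 Proxi, 9 Dista and 3 Mix cells too shallow to enter. Without H3K27me3 experiments 8, 9 and 10 the medians at this depth were 898.5, 1102.5 and 854. The order of Proxi and Dista turned with depth. Within experiments the ratio of the Proxi to the Dista median at that depth ran from 0.831 to 1.06, and Proxi was higher in 3 of 8 experiments.

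**Figure D1:**
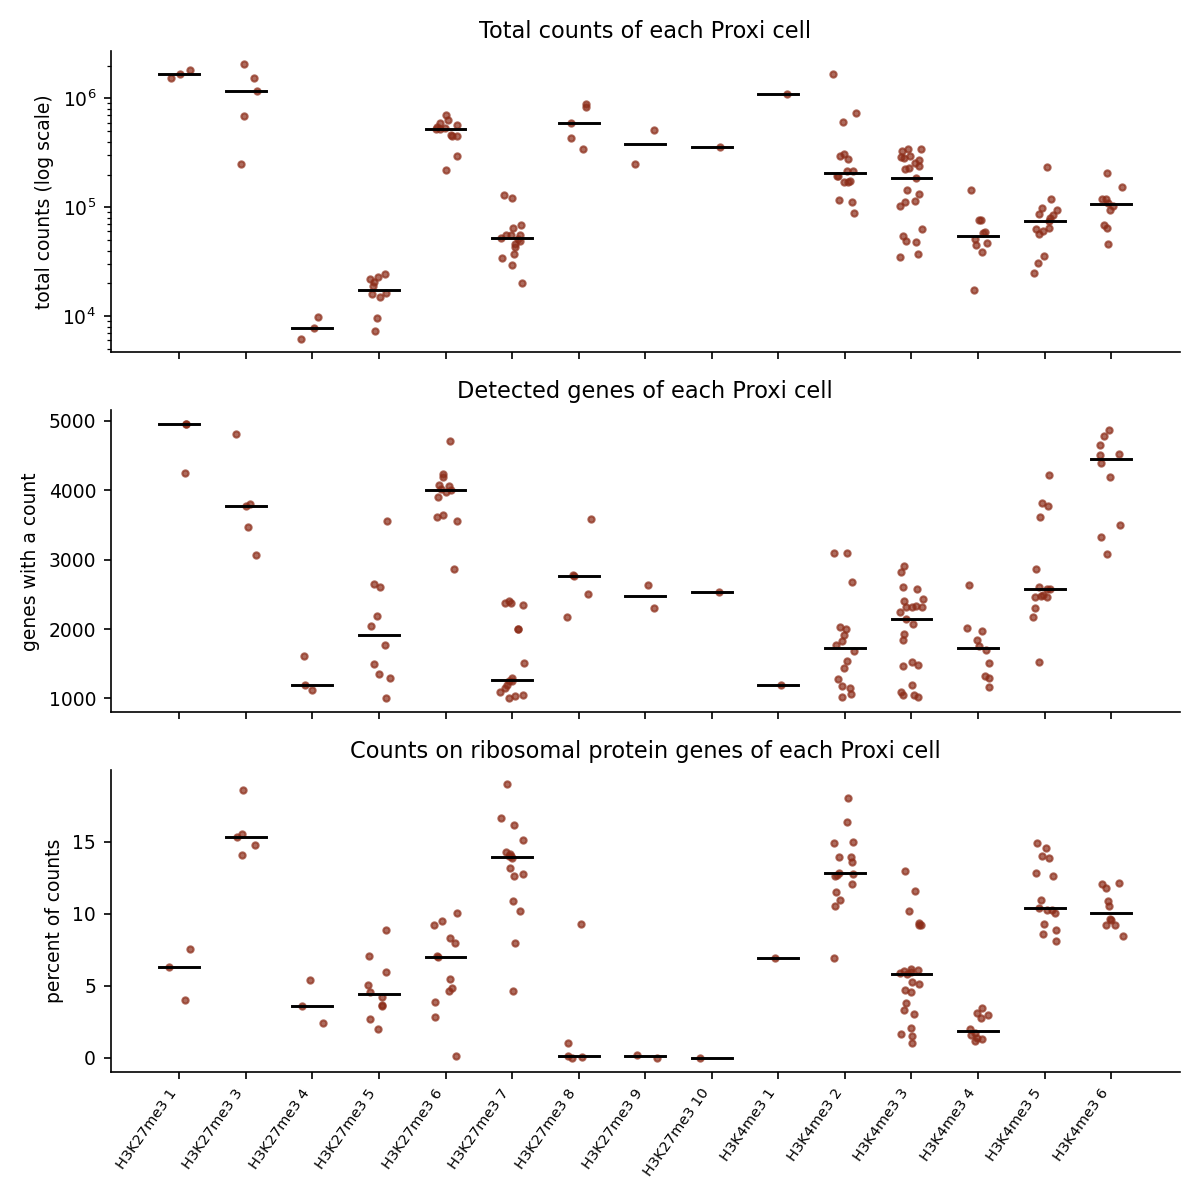
Total counts (log scale), detected genes and percent of counts on ribosomal protein genes for each of the 133 Proxi cells, by experiment, with black lines at the medians. Depth differs by over 2 orders of magnitude between experiments, and the cells of H3K27me3 experiments 8, 9 and 10 have median ribosomal protein shares of 0.166%, 0.107% and 0.00692%.

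How Proxi cells were spread over the experiments was asked next. H3K4me3 experiment 3 gave the most, 23 of 57 passing cells (40.4%, exact 95% interval 27.6% to 54.2%). H3K27me3 experiment 2 gave 0 of 8 (exact 95% interval 0% to 36.9%). H3K27me3 experiment 7 gave 16 of 39 (41.0%), while H3K27me3 experiments 8, 9 and 10 gave 5 of 62 (8.06%), 2 of 47 (4.26%) and 1 of 56 (1.79%). The mean share was 20.6% ± 16.4 (SD, n = 10) in the H3K27me3 experiments and 35.3% ± 10.7 (SD, n = 6) in the H3K4me3 experiments. The difference of -14.7 percentage points did not pass an exact two-sided permutation test (p = 0.0719, adjusted 0.144 over 2 tests of shares). Without H3K27me3 experiments 8, 9 and 10 it was -7.82 points (exact permutation p = 0.310). In experiments with at least 10 passing cells it was -16.9 points (exact permutation p = 0.0466, not adjusted).

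Proximal cells made up 88.1% ± 11.8 (SD, n = 7) of the Proxi cells per H3K27me3 experiment and 80.7% ± 12.6 (SD, n = 5) per H3K4me3 experiment, counting experiments with at least 3 Proxi cells. The difference of 7.38 points did not pass the exact permutation test (p = 0.328, adjusted 0.328). The lowest share was that of H3K4me3 experiment 6, where 6 of 10 Proxi cells were proximal, and the highest was 100% in H3K27me3 experiments 4 and 8. In all, 114 Proxi cells were proximal and 19 distal. The cluster's markers were detected in both kinds. Rpl10a had a count in 107 of 114 and 19 of 19, and Nanog in 72 of 114 and 14 of 19. Rnf7 was found in 65 and 11, Ywhae in 103 and 17, and Zfp42 in 73 and 13. Such detection does not set Proxi cells apart, since Rpl10a was detected in 95% and Nanog in 66.9% of Dista cells.

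**Figure D2:**
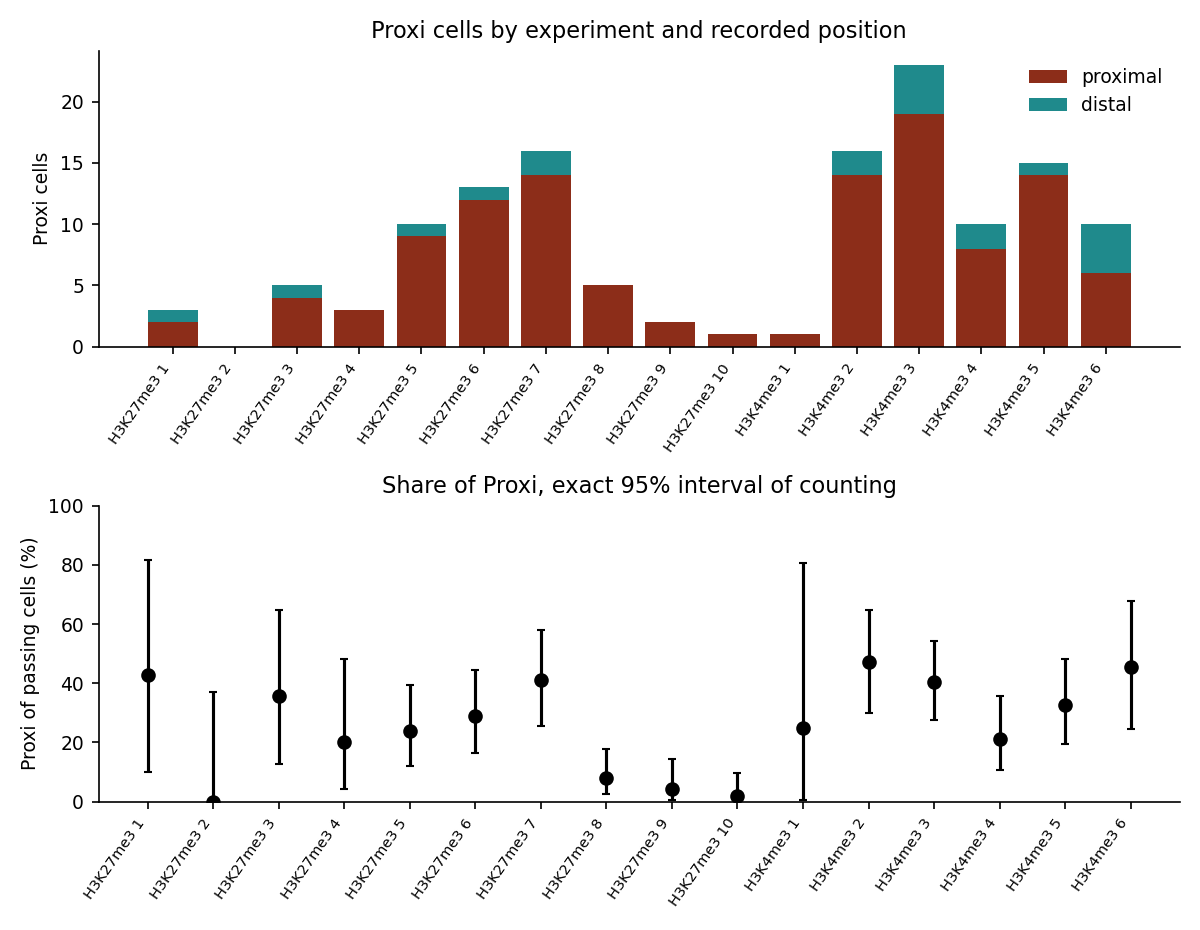
Upper panel, number of Proxi cells per experiment, split by recorded position. Lower panel, their percent of passing cells with exact 95% intervals, which cover counting error only; shares run from 0% in H3K27me3 experiment 2 to 47.1% in H3K4me3 experiment 2.

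What all Proxi cells had in common was read from detection. At least 1 count in a Proxi cell was found for 15106 genes, but only 971 were detected in at least 50% of the 133 cells and 113 in at least 90%. A count in fewer than 10% of the cells was the rule for 7712 genes, and 1014 were seen in a single cell. The 8 features found in every Proxi cell were Rn45s, the 45S pre-ribosomal RNA, the microRNA loci Mir3084-1 and Mir684-1, and the genes Cntnap5b, Gphn, Hdac9, Lars2 and Zc3h7a. Outside H3K27me3 experiments 8, 9 and 10, 23 genes were found in all 125 cells. Rn45s was the most counted gene in 75 cells, Brpf3 in 27 and Mir3084-1 in 17. This top gene held a median of 12.4% of a Proxi cell's counts.

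Cell-to-cell spread was large even among the 500 genes with the highest mean CPM (counts scaled to a total of 1000000 per cell), which held 65.4% of all Proxi counts. Their median coefficient of variation (CV) over the 133 cells was 2.11. Mir684-1 had the lowest CV, 0.620, with levels from 810.2 to 86126 CPM and a median of 17035. Rn45s followed at 0.650 and Zc3h7a at 0.795, and Rpsa, a protein of the small ribosomal subunit, had 0.898. The highest CVs came close to 11.5, the value a gene reaches when all its counts lie in 1 of 133 cells. Ptprg, a receptor tyrosine phosphatase gene, had a CV of 11.4 and was detected in 6 cells, 1 of which held 96.1% of its counts. Sap18, a member of the Sin3 corepressor complex, was detected in 39 cells, with 99.0% of its counts in 1 cell of H3K27me3 experiment 8. A mean over Proxi cells can thus rest on a single well, and the share of cells with a count is given beside levels here.

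Proxi cells of an experiment were about as like each other as they were like its Dista cells. Over 8 experiments, with cells thinned to 10000 counts, the median Pearson correlation of log2(CPM + 1) between pairs of Proxi cells had a median of 0.297 and ran from 0.193 in H3K27me3 experiment 3 to 0.424 in H3K27me3 experiment 6. For pairs of a Proxi and a Dista cell it was 0.286 and for pairs of Dista cells 0.305. Pairs within Proxi were more alike than mixed pairs in 5 of 8 experiments. These correlations are across genes in sparse counts, and cells of one pair share a library pool and its most abundant genes.

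The markers of the cluster were then compared with Dista within the 9 experiments that held at least 3 cells of both, which took in 111 Proxi and 112 Dista cells. Rnf7 (chr9:96371360-96379094, mm9, minus strand), the RING partner of cullin ubiquitin ligases, had 29.9 to 988 CPM in the summed Proxi cells of these experiments (median 352) and 5.57 to 193 CPM in Dista (median 38.1). Its fitted difference was 2.66 on the log2 scale, and it was higher in Proxi in 8 of 9 experiments. Rpl10a (chr17:28465416-28467977, plus strand), a protein of the large ribosomal subunit, had 568 to 2583 CPM in Proxi (median 1443) and 293 to 1455 in Dista (median 942), a difference of 0.94 with Proxi higher in 8 of 9. These were the markers that separated the clusters in most experiments, yet their ranges overlapped. Detected shares here and below are of all cells of a cluster, not only of those compared, unless stated. They were 57.1% of Proxi and 47.1% of Dista cells for Rnf7, and 94.7% and 95% for Rpl10a.

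The other markers did not separate Proxi from Dista. Ywhae, the gene of 14-3-3 epsilon, differed by 0.16 on the log2 scale and was higher in Proxi in 4 of 9 experiments. Nanog (chr6:122657507-122664651, plus strand), a homeobox factor of naive pluripotency, had 29.9 to 654 CPM in Proxi (median 175) and 10.3 to 539 CPM in Dista (median 152). It differed by 0.19, was higher in Proxi in 4 of 9 experiments, and was detected in 64.7% of Proxi, 66.9% of Dista and 27.5% of Mix cells. Without H3K27me3 experiments 8, 9 and 10 these shares were 68.8%, 69.2% and 54.3%. Zfp42 (chr8:44380422-44392363, minus strand), known as Rex1 and a marker of the naive state, had medians of 190.5 and 173 CPM and a difference of -0.13, with 64.7% of Proxi and 67.8% of Dista cells positive. Both factors were thus found in like shares of Proxi and Dista cells. Of the other genes that the study named on these cells, Ndufb10, a subunit of respiratory complex I, was at -3.63 and lower in Proxi in 6 of 9 experiments, with 25.6% of Proxi and 43.0% of Dista cells positive. Rps4x, of the small ribosomal subunit, was at -0.71 and lower in 7 of 9. Ftl1 (-0.12), Rpl37 (-0.13), Peak1 (-0.12) and Aebp2 (0.35) each had experiments on both sides.

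**Figure D3:**
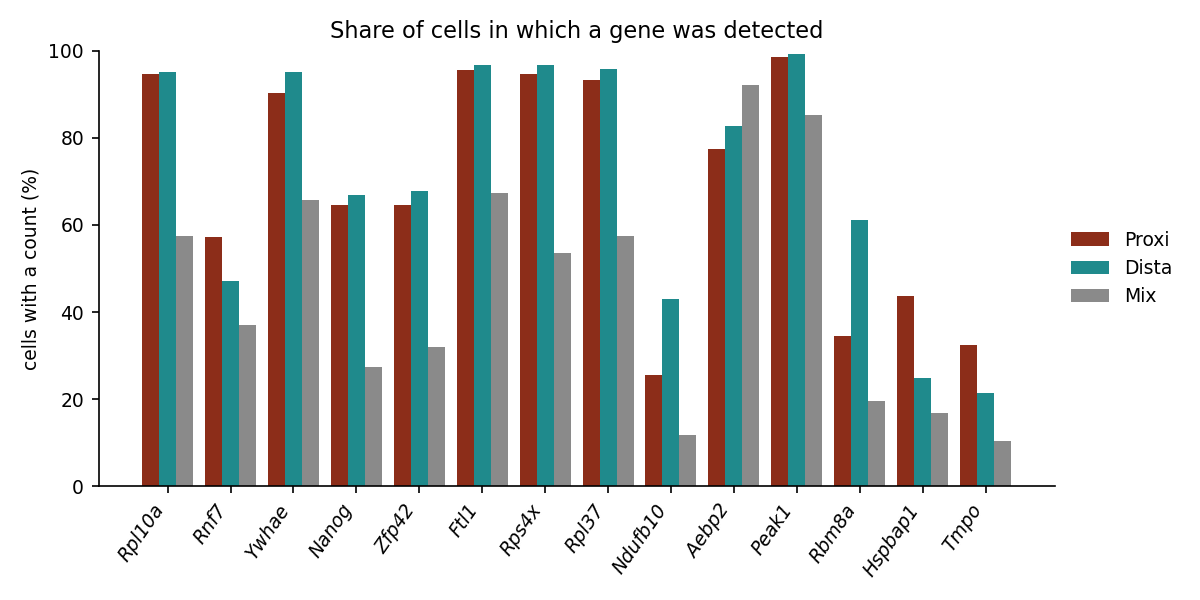
Percent of the 133 Proxi, 121 Dista and 291 Mix cells with at least 1 count of a gene. Nanog was detected in 64.7%, 66.9% and 27.5% of them, whereas Rbm8a was detected in 34.6% of Proxi and 61.2% of Dista cells. Of the Mix cells 153 came from H3K27me3 experiments 8, 9 and 10, without which Nanog was detected in 54.3% of them.

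Across all genes, 15 of 2974 had a fitted difference of at least 2-fold and the same sign in each of the 9 experiments. This is 0.504% of the genes compared, 10 higher in Proxi (0.336%) and 5 lower (0.168%), and since the clusters were made from these cells nothing is read from the count. Without the 2-fold rule, 16 genes had one sign in all 9 (0.538%). The gene furthest apart was Rbm8a (chr3:96433851-96437702, plus strand), which encodes a core protein of the exon junction complex. Its level in Proxi ran from 0 to 41.8 CPM (median 6.02) and in Dista from 50.8 to 1741 CPM (median 212), so the 9 values of each cluster did not overlap. The fitted difference was -5.12, and a count was found in 34.6% of Proxi against 61.2% of Dista cells. Thinned to 10000 counts the shares were 10.2% and 34.8%.

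The other genes lower in Proxi in each experiment had overlapping ranges between the clusters. Ube2b, a ubiquitin-conjugating enzyme of DNA repair, had a median of 3.01 CPM in Proxi and 37.3 in Dista, a difference of -3.51. Ccng1, cyclin G1, was at -2.19, but 72.9% of its Proxi counts lay in 1 cell. Prdm2, a histone methyltransferase gene, was at -1.98 although more Proxi than Dista cells had a count (49.5% and 44.6% of the cells compared). Ctc1, of the CST complex at telomeres, was at -1.97, and Prpf8, a core protein of the spliceosome, was at -0.90 with 208 against 328 CPM at the median.

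Of the genes higher in Proxi in each experiment, Hspbap1 (chr16:35770472-35828532, plus strand), which encodes a protein that binds a small heat shock protein, came first. It ran from 1.36 to 404 CPM in Proxi (median 115) and from 0 to 150.4 CPM in Dista (median 5.85), with a difference of 3.29. It was detected in 43.6% of Proxi and 24.8% of Dista cells, and the 4 H3K4me3 experiments had larger differences than the 5 H3K27me3 experiments. In H3K4me3 experiment 3 the values were 334 and 16.5 CPM, and in H3K27me3 experiment 6 they were 1.36 and 0.982. Tmpo (chr10:90610316-90634759, minus strand), which encodes lamina-associated polypeptide 2, ran from 31.8 to 144 CPM against 0 to 45.5, a difference of 3.22. Wwp2, a ubiquitin ligase, was at 2.89 and Smc5, of the complex that handles recombination intermediates, at 2.66. Mrpl22, of the mitochondrial ribosome, was at 2.47, Cmip at 2.25 and H2ac8, a histone H2A gene, at 2.20. Ube2l3, another ubiquitin-conjugating enzyme, was at 1.92 while detected in 64.9% of the Proxi and 67.0% of the Dista cells compared. Tpx2 of the mitotic spindle (1.31) and Cox8a of respiratory complex IV (1.11) completed the 10.

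**Figure D4:**
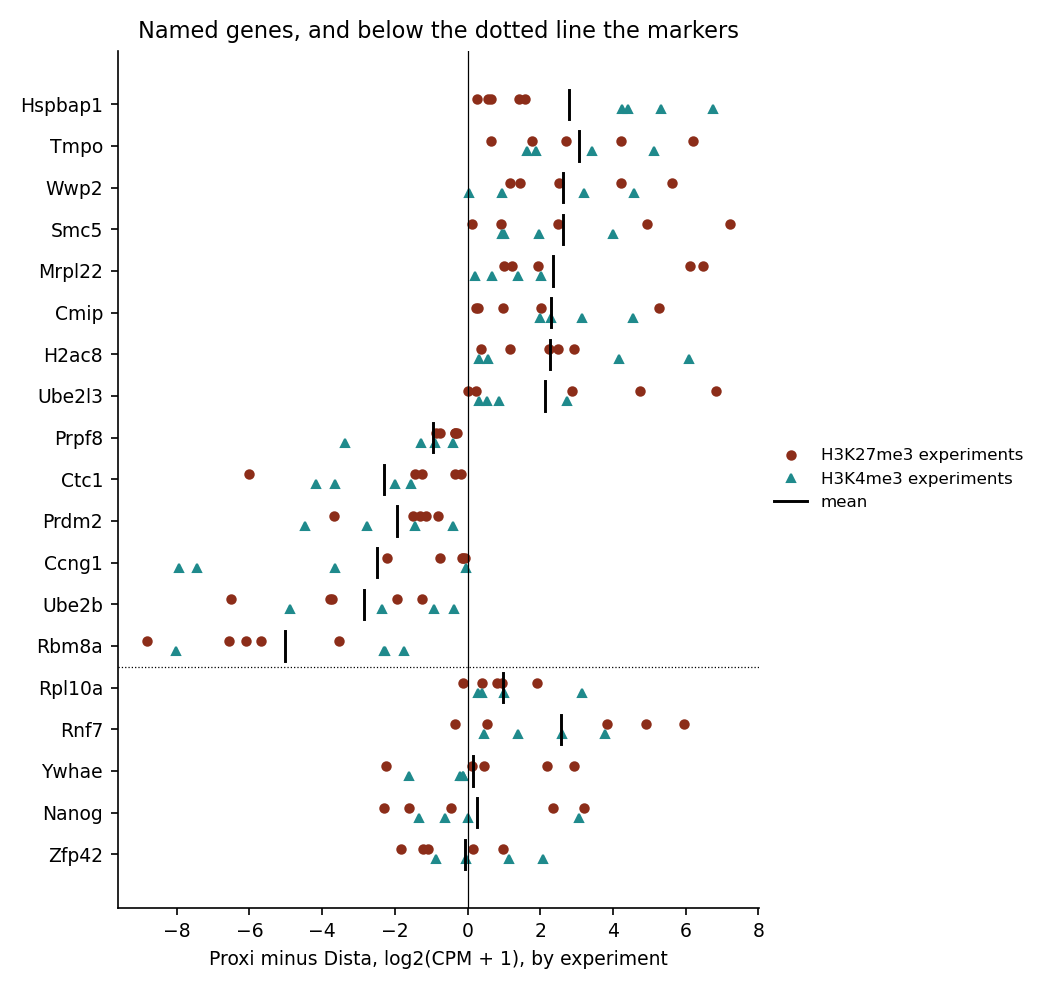
Difference of Proxi and Dista in log2(CPM + 1) for each of 9 experiments (circles, H3K27me3; triangles, H3K4me3) with the mean as a black line. The genes above the dotted line were chosen for having one sign in all 9 experiments; of the markers below it, Rpl10a and Rnf7 were higher in 8 of 9 and Ywhae, Nanog and Zfp42 in 4 of 9.

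Many of these levels were carried by few cells. The cell with the most counts held 37.6% of the Proxi counts of Hspbap1, 43.4% of those of Tmpo and 47.3% of those of Smc5. In Dista, 1 cell held 79.3%, 83.3% and 87.2% of the counts of these 3 genes. When every cell was thinned to 10000 counts, 9 of 956 genes met this rule. H3K27me3 experiment 4 did not enter, since its Proxi cells had at most 9724 counts, so one sign was needed in fewer experiments. Only 4 of the 15 passed the filter on low counts there and none had one sign in all experiments. Their differences were 1.82 for Ube2l3, -1.72 for Ctc1, 1.52 for Tpx2 and 1.07 for Cox8a. Thinned counts are drawn from the same counts, so nothing is read from these values being near the first. The other 11 could not be compared at that depth.

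The genes were also read by pathway, against a median over all 2974 genes of -0.13. Of the naive pluripotency list, 4 of 9 members compared were higher and 5 lower in Proxi than in Dista (median -0.13), with Klf2 at 1.09 and Tcl1 at -0.72. Of the core pluripotency list, 3 were higher and 6 lower (median -0.42). Dppa5a was detected in 93.2% of Proxi and 95% of Dista cells, and Pou5f1 in 17.3% and 28.1%. Of PRC2, the complex that methylates H3K27, 2 of 8 were higher and 6 lower (median -0.33): Ezh2, its catalytic subunit, was at -1.41 and lower in 8 of 9 experiments, and Eed, which binds the mark, was at 1.17. No member of these 3 lists had one sign in all experiments with a 2-fold difference.

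Wnt pathway genes were too thinly counted for most comparisons. Of the 12 genes in both tables on the list used here for Wnt targets and feedback, 2 passed the filter on low counts. They were Ccnd1 at -0.15 and Cdkn1a at -1.82, and neither is read as a measure of the Wnt signal. Axin2, a feedback inhibitor induced by β-catenin, had a count in 4 of 133 Proxi and 5 of 121 Dista cells, and Lef1, a nuclear partner of β-catenin, in 12 and 5. Rnf43, which removes Frizzled receptors, had a count in 0 of 133 Proxi cells, which allows a share of up to 2.26%. A difference in these genes was not detectable at this depth. Ctnnb1, the gene of β-catenin, had a count in 57.9% of Proxi and 63.6% of Dista cells and was at 0.61.

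Ribosomal protein genes leaned lower in Proxi, 62 of 78 against 16 higher, with a median of -0.27 against -0.13 over all genes, and none was called. Rpl35a was at 1.45 and Rpl29 at -1.81. These genes have many near-identical pseudogenes, so their counts are uncertain. The respiratory chain list was even, 34 higher and 33 lower (median 0.00), with Ndufa6 at 3.10, Sdha at -4.26 and Cox8a as the 1 called. Of the proteasome subunits 18 were higher and 14 lower (median 0.14), and S phase genes were 5 and 5 (median -0.02). Of the glycolysis list, 4 were higher and 6 lower (median -0.05), and of the G2 and M phase list 3 were higher and 5 lower (median -0.33).

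Markers of fibroblasts, germ layers and unrelated cells were seldom detected in Proxi. Of each of these lists, a median of 0 members was detected per Proxi cell. In over 10% of the cells, 1 fibroblast gene, 1 gene of unrelated cells and 0 germ layer genes had a count. The summed level of 5 fibroblast genes per experiment had a median of 1.61 CPM and a highest value of 308, and Eomes, a mesoderm and endoderm factor, was at 0 in each Proxi cell. Of 5 genes of unrelated cells the sum had a median of 2.77 CPM and a highest value of 213. The 9 primitive endoderm genes summed to 0 to 631 CPM (median 35.9), with a median of 1 member per cell and 3 members in over 10% of the cells. Of these, the laminin gene Lama1 was found in 47 of 133 cells, while the defining factors Gata4, Gata6 and Sox17 were found in 2, 2 and 1. The 5 genes of 2-cell-like cells summed to 0 to 816 CPM (median 13.1), with a median of 0 members per cell.

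Against the Mix cells, 126 Proxi and 183 Mix cells of 11 experiments were compared. Of 2326 genes, 76 (3.27%) met the same rule as lower in Proxi and 0 as higher. They ran from -1.09 to -2.96. Anks1b was lowest, with a count in 36.8% of all Proxi and 59.5% of all Mix cells. Without H3K27me3 experiments 8, 9 and 10 its shares were 34.4% and 47.8%. Setbp1 (-2.58), Ptpro (-2.27), Gpc6 (-2.26) and Nrp1 (-2.21) followed. Of H3K27me3 experiments 8, 9 and 10, only experiment 8 held enough Proxi cells to enter this fit. In the fit without it, 7 genes were higher and 64 lower, and 57 of the 76 were among them. By list, over a median of -0.08 for all genes, S phase genes were higher in Proxi for 8 of 9 (median 0.99), the respiratory chain for 45 of 56 (median 0.36) and the proteasome for 22 of 30 (median 0.61). Ribosomal protein genes were higher for 32 and lower for 45 (median -0.04), and those of the G2 and M phase list for 3 and 5 (median -0.08). Core pluripotency genes were higher for 3 of 5 (median 0.67) and naive pluripotency genes for 5 of 6 (median 0.74). Without H3K27me3 experiment 8 the median of all genes moved to 0.28, and those of the S phase, respiratory chain and proteasome lists to 1.42, 0.60 and 0.99. Ribosomal protein genes were then higher for 61 and lower for 16, with a median of 0.21 that lay under that of all genes. Core pluripotency genes were then higher for 6 of 6 (median 1.07) and naive pluripotency genes for 7 of 7 (median 1.18). Within experiments, the median share of counts on Rn45s was higher in Proxi than in Mix in 10 of 11 experiments, and so was the share on ribosomal protein genes. Their part in these differences was not tested.

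Proxi cells of the H3K27me3 and H3K4me3 experiments were compared with a test, since the clusters were made from both together. Clustering followed a batch correction by canonical correlation analysis. Cells thus got the label Proxi after differences between batches had been reduced, and the p-values on raw counts do not allow for this. The counts were summed over the Proxi cells of 7 H3K27me3 and 5 H3K4me3 experiments with at least 3 such cells (55 and 74 cells). The quasi-likelihood test of edgeR called 22 of 4554 genes at an adjusted p below 0.05 (0.483%), 8 higher (0.176%) and 14 lower (0.307%) in the H3K27me3 experiments. All 22 differed by at least 6.48 on the log2 scale. The values of the 7 and 5 experiments did not overlap for 52 of 4554 genes (1.14%), and for 2 of the 22 called. Trim30a (chr7:111557539-111613707, minus strand), a tripartite motif protein gene, had values of 0.554 to 114 CPM in the H3K27me3 experiments (median 6.53). In the H3K4me3 experiments it had 128 to 11447 CPM (median 1132). It differed by -6.48 ± 1.72 (SE; edgeR adjusted p = 0.0376, n = 7 and 5). Gm21319 had 0 to 119.6 CPM (median 0.844) against 211 to 4523 CPM (median 333) and differed by -6.52 ± 1.74 (SE; edgeR adjusted p = 0.0376). The call of Trim30a was lost under 16 alternatives and kept under 3, and that of Gm21319 was lost under 13 and kept under 6.

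The other called genes had overlapping values between the series. Brpf3, which encodes a scaffold of histone acetyltransferases, made up 296774 CPM of the summed Proxi cells of H3K4me3 experiment 3, and Dista and Mix cells of that experiment had 213918 and 400945 CPM. Pcca, a mitochondrial carboxylase gene, had 208283 CPM in Proxi of H3K4me3 experiment 4, with 189999 in Dista and 157927 in Mix. Levels across clusters are scaled here by total counts, not by the factors of the fit that gave Trim30a 11447 CPM above. On this scale Trim30a at its highest had 4494, 3515 and 6338 CPM in the 3 clusters of H3K4me3 experiment 3. The same held in H3K27me3 experiment 1 for Zdhhc2, with 7159.6 CPM in Proxi, 7349 in Dista and 8024 in Mix. Sap18, Ccdc61 and Prkaa1 instead rested on 1 cell of H3K27me3 experiment 8, which held 99.0%, 96.5% and 99.5% of their Proxi counts. Of the 22 calls, 1 was made without H3K27me3 experiment 8, for Brpf3.

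None of the markers was called between the series. Rpl10a had a median of 1896 CPM over the H3K27me3 and 1501 CPM over the H3K4me3 experiments and differed by 1.64 ± 1.5 (SE; edgeR adjusted p = 0.843). Nanog had medians of 98.2 and 216 CPM and differed by 0.23 ± 1.54 (edgeR adjusted p = 0.995). Errors of this size mean that even large differences were not detectable for single genes. Ribosomal protein genes had a median difference of -0.33 and the respiratory chain of -0.36, against -0.16 over all genes, with 0 of 78 and 0 of 69 called.

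**Figure D5:**
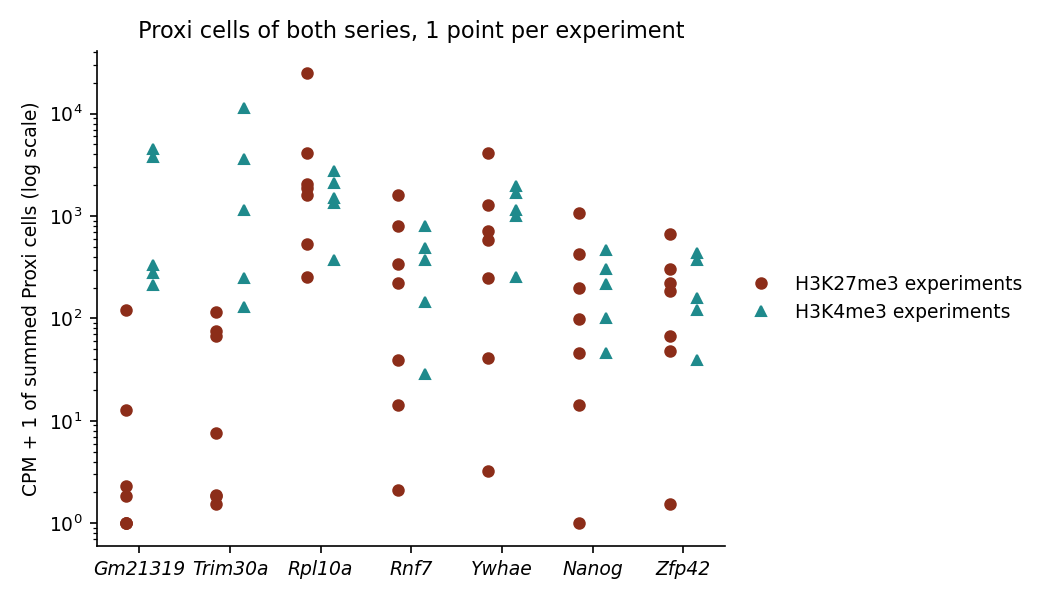
CPM + 1 (log scale) of the summed Proxi cells in 7 H3K27me3 (circles) and 5 H3K4me3 experiments (triangles) for the 2 called genes without overlap and the 5 markers. The groups are apart for Gm21319 and Trim30a and overlap for every marker, and the highest Rpl10a value, 24826 CPM, is that of H3K27me3 experiment 8.

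Whether the difference between Proxi and Dista depended on the series could be asked only roughly. The interaction of cluster and series was tested in edgeR over 9 experiments and called 0 of 2974 genes (0%), with 133 at an unadjusted p below 0.05, while DESeq2 called 52. Hspbap1, with its larger differences in the H3K4me3 experiments, was at -4.34 ± 2.06 (SE; edgeR adjusted p = 0.999). Over the 14 genes named for one sign, the standard errors of the interaction were 0.99 to 2.71 with a median of 2.05 on the log2 scale, so the count of 0 does not show that the differences were alike.

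Cells outside the Proxi and Dista clusters were used to ask whether the same genes go with position. Mix cells went through the same clustering and were set apart by their expression, so they are not an independent set. Among Mix cells, 121 proximal and 144 distal cells of 9 experiments were compared, and edgeR called 0 of 2642 genes (0%), with 110 at an unadjusted p below 0.05 and 32 called by DESeq2. Of the 14 genes named above for one sign between Proxi and Dista, 6 could be tested there and 4 had the same direction. Prpf8 had the lowest unadjusted p (0.00208, edgeR adjusted p = 0.937), at -2.66 in proximal cells. In simulated data this fit recovered 0% of genes changed 2-fold and 19.4% of those changed 4-fold. The count of 0 thus does not show that genes are alike by position. Among the cells with 5000 or more genes, which the clustering left out, 25 proximal and 26 distal cells of 2 experiments were compared. Here edgeR called 0 of 10700 genes (0%), with 30 at an unadjusted p below 0.05, and DESeq2 called 0. All 14 genes could be tested, 8 had the same direction, and the lowest unadjusted p was 0.335 (edgeR, Ube2l3, at -3.41 in proximal cells and so opposite to its sign in Proxi). Of the 8 named genes higher in Proxi, 6 were lower in these proximal cells, as were all 6 of those lower in Proxi. The standard errors of the 14 ran from 1.23 to 6.63 with a median of 3.57, so with 2 experiments the count of 0 says nothing of whether genes differ with position.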

How the data were processed

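The deposited values are raw counts, which the authors made with zUMIs from reads on mm9 genes, introns included. No molecular identifiers were used. They clustered passing cells of both tables together in Seurat 3.2.1, after batch correction by canonical correlation analysis. Cluster and position were taken from the study's table of cell labels. Cells were picked by hand, 1 per well, and no doublet caller was run. The 15947 genes in both tables were used. No column lacked a sample. Coordinates are those of GENCODE M1 on mm9.

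Counts of each cluster were summed within an experiment, where it had at least 3 cells, and fitted in edgeR 4.0.16 with TMM, its filter on low counts and, within experiments, the experiment as a block. CPM are scaled by the TMM factors of each comparison, except levels across clusters and cells, which use total counts. Adjusted p (Benjamini-Hochberg over all genes tested) below 0.05 was called. Shares were compared by exact permutation over experiments. Alternatives were DESeq2 1.42.0 and its size factors, limma 3.58.1 on mean log2(CPM + 1), no filter, more cells per sum, thinning, position, a replicate block and each experiment left out. The fits were run on simulated data with genes changed 2-, 4- and 16-fold, counting those recovered at an adjusted p below 0.05. The fit between the series recovered 0% at each fold, and so did that of cells with 5000 or more genes. The interaction recovered 0%, 0% and 13.6%, and Mix cells by position 0%, 19.4% and 81.8%. Intervals cover counting error only. Where a count of 0 is said to allow a share, that share is 3 counts over the number of cells, with cells taken as independent.

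Named genes were the 8 highest and 8 lowest between Proxi and Dista with one sign in every experiment and detected in at least 25% of the higher cluster (6 lower ones met this), the 5 highest and 5 lowest called between series without overlap (2 met this), the markers, the genes the study named and the extremes of each list, of detection and of CV. Tpx2, Cox8a, Brpf3, Pcca, Zdhhc2, Prkaa1, Ccdc61 and the genes lower than in Mix were chosen after their values were seen. The cells and gene lists were chosen with earlier results of these data known.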

Additional observations from a re-analysis of the deposited data

Results flagged for a closer look

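Of 26 groups of experiments examined for a value far from the rest, 4 held one, where chance gives about 1 in 20. Nothing is read from this number, since such values can rest on 1 cell. The median percent of a Proxi cell's counts on its top gene was 21.9% in H3K27me3 experiment 5, where Mir3084-1 led in all 10 cells, against 3.78% to 11.5% in the other 6 H3K27me3 experiments. Rpl10a had 24826 CPM in the Proxi cells of H3K27me3 experiment 8, against 253 to 4141, and 44790 of its 44802 counts there lay in 1 cell. Ywhae had 4091 CPM in H3K27me3 experiment 3, against 2.22 to 1277. Nanog had 1060.5 CPM in the same experiment, against 0 to 427.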

How the results depend on the processing

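The comparison of the series depended most on the processing. It called 22 genes in the report, 298 with DESeq2 (13 of the 22 among them), 562 without the filter on low counts, 7 with at least 5 Proxi cells per experiment, 8 with proximal cells alone, 0 with limma on mean log2(CPM + 1) and 2 with the replicate block. Leaving out each experiment gave 1 to 23 calls, and the fewest were without H3K27me3 experiments 8 (1) and 6 (5) and H3K4me3 experiment 3 (6), then without H3K4me3 experiments 2 (10) and 5 (11) and H3K27me3 experiment 1 (13). Same-numbered experiments of the 2 series had residual correlations across genes of 0.123, -0.0181, 0.160 and 0.0830, and 1 of 4 was most like its own number. These 4 values cannot tell whether such experiments shared more than a number. The interaction called 52 genes with DESeq2 and 6 without the filter, and 0 with each experiment left out. Mix cells by position gave 32 with DESeq2 and 32 without the filter, and 0 with each experiment left out. Cells with 5000 or more genes gave 2 without the filter. Leaving out an experiment was not run there, since 2 hold such cells.

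Between Proxi and Dista the 15 genes became 30 with at least 5 cells per cluster (13 shared), 9 with thinned cells (0 shared, with 4 of the 15 among the 956 genes left) and 27 with the mean of the cells' CPM (13 shared). With each experiment left out there were 21 to 38, fewer experiments being needed for one sign, with 38 both without H3K27me3 experiment 3 and without H3K27me3 experiment 7. With total counts 11 were higher and 4 lower, and with proximal Proxi against distal Dista cells 16 and 3. None of the 14 genes named for one sign between Proxi and Dista, nor Trim30a or Gm21319, changed direction where an alternative gave a value. Under thinning, values were had for 3 of the 14. This was largely set by the choice of genes, for one sign in every experiment or values without overlap, and by refitting the same counts. Nothing is read from it. The difference in Proxi share was -16.9 points with at least 10 passing cells per experiment and ran from -17.5 to -12.3 with each experiment left out (exact permutation p of 0.0352 to 0.150), passing 0.05 without H3K27me3 experiments 1 or 7 or H3K4me3 experiment 4. That in proximal share ran from 2.21 to 10.9. Detected genes fell to a median of 856.5 with cells thinned to 10000 counts. Leaving out H3K27me3 experiments 8, 9 and 10 together, and each experiment from the proximal share, was chosen after the data were seen. Of 15106 genes, 7712 were detected in under 10% of Proxi cells.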
